A study of Mus musculus with 18 samples.

Results

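Liver mRNA of the mitochondrial acyl-CoA dehydrogenases and of their shared electron acceptor was measured in male wild-type C57BL/6J mice with and without dietary riboflavin (vitamin B2). The set holds 10 of the 54532 genes listed in each expression table and was taken by gene name from a list of members, which was drawn up with earlier results of these data known. It has 7 dehydrogenases, of which 4 act on straight acyl chains of different length (Acadvl, Acadl, Acadm and Acads), 2 on branched chains (Acadsb and Ivd) and 1 on the lysine and tryptophan pathway (Gcdh), and 3 acceptor genes (Etfa, Etfb and Etfdh). Mice were placed on the diets at 1 month of age. The Ctrl (n = 5) and B2D (n = 5) groups received the control or the riboflavin-deficient diet for 1 month. The Ctrl+FF (n = 4) and B2D+FF (n = 4) groups received the same diets for 9 weeks and fenofibrate, an agonist of the nuclear receptor PPARα, by daily gavage in weeks 7 to 9, with the last dose 2 hours before harvest. All mice were fasted overnight before the liver was taken, and each library came from 1 mouse. Fenofibrate, weeks of diet and table are confounded, so values of the Ctrl and Ctrl+FF groups are set side by side without a test.

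Acyl-CoA dehydrogenases are flavoproteins that carry FAD, which the cell makes from riboflavin. Each removes a pair of hydrogens from an acyl-CoA and passes the electrons to the electron transfer flavoprotein (ETF), a dimer of the Etfa and Etfb products that also holds FAD. ETF dehydrogenase, encoded by Etfdh, then hands the electrons to ubiquinone in the inner mitochondrial membrane. Loss of ETF or of Etfdh in people causes multiple acyl-CoA dehydrogenase deficiency, and some forms respond to riboflavin.

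The libraries held between 15320729 and 21898502 reads on genes, and Pearson's r between libraries of a group, across all genes, lay between 0.979 and 0.9938. All 6 hepatocyte markers examined, such as Alb and Hnf4a, were present in every group, with a summed level of 18734 to 46342 FPKM per library, where FPKM is fragments per kilobase of gene, scaled to a library size. That size, recovered from the values, was not the number of reads on genes. It was 17383878 against 18075772 reads in Ctrl mouse 2 and 17069373 against 15320729 reads in B2D mouse 2. The summed level of 6 Kupffer cell and macrophage markers was 59.1 to 98.3 FPKM in the libraries without fenofibrate and 40.9 to 112 FPKM in those with it. All 6 were lower on the deficient diet in both comparisons, with median differences in log2(FPKM + 1) of -0.20 and -0.35. Of the 6, only Clec4f passed, in B2D (28.7 against 20.4 FPKM, limma adjusted p = 0.0412, kept in 1 of the 10 fits without 1 mouse). In B2D+FF, Clec4f and Cd68 were lower without overlap and did not pass (limma adjusted p = 0.108 and 0.101). With fenofibrate 2 other markers passed, both higher in B2D+FF: the hepatocyte marker Tat, tyrosine aminotransferase (299 against 751 FPKM, limma adjusted p = 0.0188, kept in 7 of the 8 fits without 1 mouse), and the endothelial marker Lyve1 (5.38 against 10.1 FPKM, limma adjusted p = 0.0294, kept in 4 of 8). Lyve1 was the 1 endothelial marker of 6 with a positive difference there, and 5 were negative. Of the 6 hepatocyte markers 4 had positive and 2 negative differences on the log2(FPKM + 1) scale. The 2 were Alb (-0.35, limma adjusted p = 0.114) and Ttr (-0.34, limma adjusted p = 0.104), both lower without overlap. The summed level of the 6 endothelial markers was 26.4 to 31.2 FPKM in Ctrl+FF and 24.6 to 35.7 FPKM in B2D+FF. That of the 6 hepatocyte markers was 20987 to 24214 FPKM and 18734 to 21504 FPKM. No other marker in the lists, which also cover stellate cells, cholangiocytes and lymphocytes, passed in either comparison. The part of such shifts in the results was not tested, and in bulk liver fewer cells of a type cannot be told apart from less RNA per cell.

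All 10 genes passed the filter of a mean of 0.5 FPKM in both tables and were detected in every library, with at least 435 reads. FPKM is a level per gene length, and the length used was that of all annotated exons of a gene together, from 1164 bases (Etfb) to 7505 bases (Etfdh). Where the transcripts in liver are shorter than that, the level is understated. Transcript lengths were not examined, so the order between genes is approximate. In Ctrl the highest were Acadl (234 ± 16.3 FPKM, mean ± SD), Acadm (225 ± 20.9), Etfa (223 ± 15.6) and Gcdh (216 ± 17.3), 4 neighbours whose ranges over mice overlapped. Acadvl (123 ± 8.39 FPKM) and Acads (104 ± 11.4) followed with ranges apart from each other, then Etfdh (68.2 ± 9.91), which overlapped with Acads. Ivd (37.2 ± 0.879 FPKM), Etfb (24.3 ± 4.42) and Acadsb (18.4 ± 1.97) were the lowest, and Etfb and Acadsb overlapped. The B2D order moved Etfdh above Acads (84.0 and 81.9 FPKM), with overlapping ranges. In Ctrl+FF the order was Acadm (354 ± 28.7 FPKM), Acadl (304 ± 12.2), Gcdh (252 ± 12.2), Etfa (230 ± 18.8), Acadvl (157 ± 8.24), Acads (134 ± 11.4), Etfdh (74.2 ± 6.12), Etfb (51.9 ± 9.23), Ivd (44.4 ± 2.24) and Acadsb (15.4 ± 1.70). The ranges of Gcdh and Etfa overlapped there, as did those of Etfb and Ivd, and no other neighbours did. In B2D+FF the order put Acadl (434 FPKM) beside Acadm (429 FPKM), with overlapping ranges.

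The genes lie on 8 chromosomes of build GRCm38: Acadl on chromosome 1 (66830839 to 66863277), Ivd on 2 (118861954 to 118882909), Etfdh and Acadm on 3 (79603788 to 79629500 and 153922357 to 153944632), Acads on 5 (115110299 to 115119346), Etfb and Acadsb on 7 (43444083 to 43457800 and 131410601 to 131448944), Gcdh on 8 (84886393 to 84893921), Etfa on 9 (55454508 to 55512243) and Acadvl on 11 (70010183 to 70015411). The levels of Etfb and Acadvl carry a limit. In the gene annotation 58.2% of the exon bases of Etfb lie in other genes as well, 617 bases in Gm45233 on the same strand, and 42.9% of those of Acadvl lie in Dvl2 on the opposite strand. How reads on such shared bases were counted is not given in the sources used here. Gm45233 held 0 to 8 reads per library, where Etfb held 435 to 1652, so few reads on their shared bases were counted to Gm45233. If such reads were left out of both genes, the level of Etfb is understated. Dvl2 held at most 1.09 FPKM. Of Etfdh 3.70% was shared, and of the other 7 genes none. The level of Etfb against Etfa, the 2 subunits of one dimer, is therefore uncertain, while differences between mice compare the same gene.

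**Figure D1:**
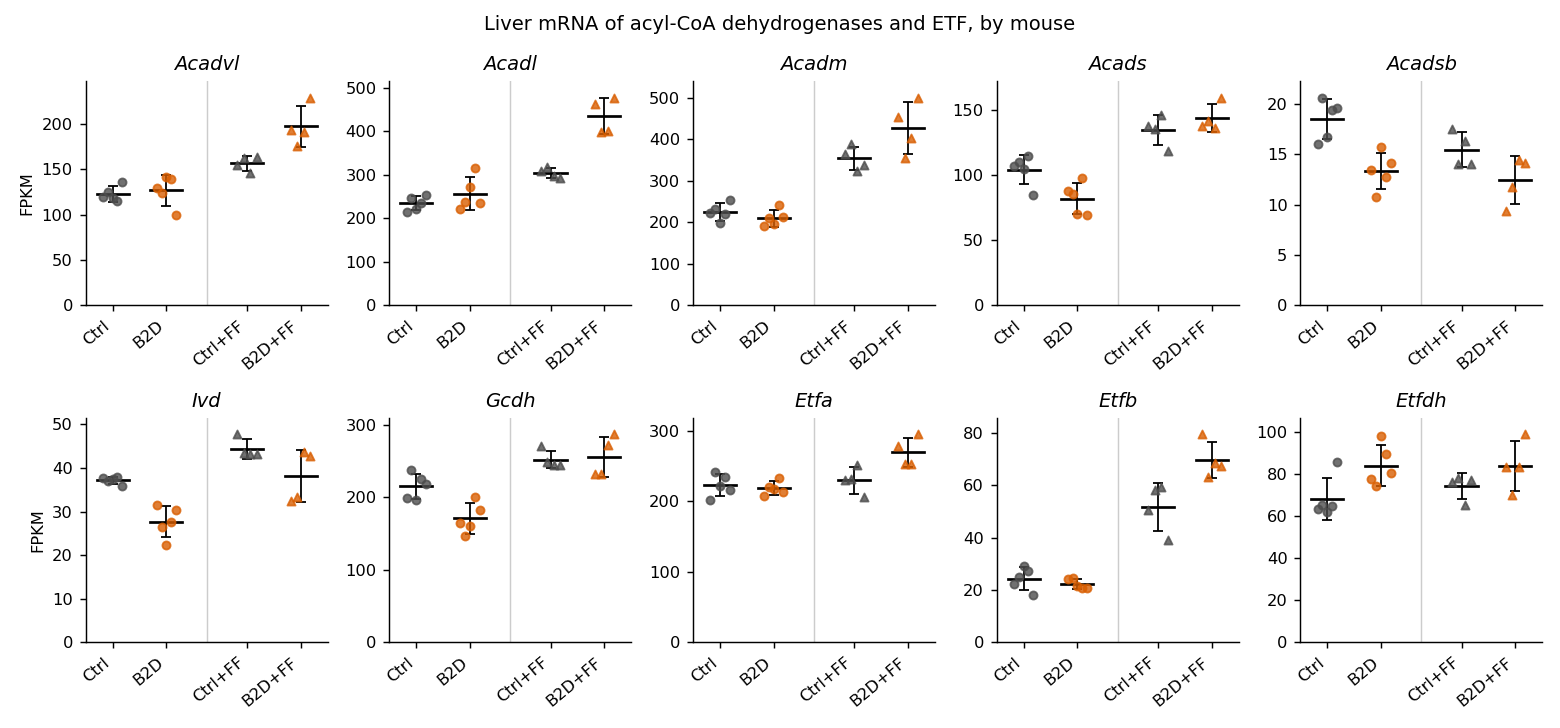
FPKM of each of the 10 genes (vertical axes from 0, one per gene) in each mouse of the 4 groups; circles are mice without and triangles mice with fenofibrate, and bars show the mean and SD. Ivd lay at 35.8 to 38.0 FPKM in Ctrl and 22.3 to 31.4 FPKM in B2D, and Acadl at 291 to 319 FPKM in Ctrl+FF and 398 to 477 FPKM in B2D+FF.

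The first comparison, B2D against Ctrl without fenofibrate, asks how the genes respond to the loss of the vitamin alone. None of the 10 genes passed the threshold (limma, adjusted p under 0.05 over all 11574 genes tested), where 1.94% of all genes fell and 0.769% rose. At an unadjusted p under 0.05, 4 members were lower and 1 was higher (10.1% and 8.24% of all genes), and limma voom on the recovered reads called 1 member. The groups did not overlap for 2 members, both lower (2.89% of all genes were lower without overlap and 2.08% higher). The median difference of the 10 was -0.10 on the log2(FPKM + 1) scale, and that of all genes was -0.0013.

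The long- and medium-chain enzymes did not differ detectably. Acadvl, the very long-chain enzyme bound to the inner membrane, was at 119, 125, 118, 115 and 136 FPKM in the 5 Ctrl mice and at 129, 124, 141, 139 and 99.7 FPKM in the 5 B2D mice. The ranges overlapped, and the difference was 0.04 (95% confidence interval -0.21 to 0.28, limma adjusted p = 0.894). Acadl, the long-chain enzyme, was at 214, 246, 222, 235 and 253 FPKM in Ctrl and at 221, 238, 272, 315 and 234 FPKM in B2D. Its difference was 0.12 (-0.13 to 0.38, limma adjusted p = 0.614), and B2D mouse 4 was the highest. Acadm, the medium-chain enzyme whose loss is among the commonest inherited defects of fatty acid oxidation, was at 222, 233, 198, 219 and 255 FPKM in Ctrl and 190, 211, 196, 243 and 213 FPKM in B2D. Its ranges overlapped, with a difference of -0.10 (-0.33 to 0.14, limma adjusted p = 0.666).

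Acads, the short-chain enzyme, had a lower mean in B2D than in Ctrl (81.9 ± 12.1 against 104 ± 11.4 FPKM), a difference of -0.35 that did not pass (SE 0.13, limma adjusted p = 0.174). Its Ctrl values were 107, 110, 104, 115 and 85.0 FPKM and its B2D values 87.8, 85.1, 69.9, 97.5 and 69.5 FPKM. Ctrl mouse 5 was the lowest Ctrl value, below 3 of the 5 B2D mice.

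Acadsb and Ivd, the 2 branched-chain enzymes of the set, had the largest negative differences of the 10, and Gcdh was close to Acads. Ivd, which acts on isovaleryl-CoA in leucine breakdown, was at 37.6, 36.9, 37.5, 38.0 and 35.8 FPKM in Ctrl, and at 31.4, 26.6, 22.3, 27.6 and 30.3 FPKM in B2D. The ranges were apart, with all B2D values under all Ctrl values. The difference was -0.42 (SE 0.10, -0.65 to -0.20), with a limma adjusted p of 0.0505, just outside the threshold. Acadsb, which acts on short branched-chain acyl-CoA from isoleucine, was at 16.0, 20.6, 16.7, 19.4 and 19.5 FPKM in Ctrl and at 13.4, 10.8, 15.7, 12.7 and 14.1 FPKM in B2D. Its ranges were also apart, with a difference of -0.44 (SE 0.11, limma adjusted p = 0.0622). Gcdh, glutaryl-CoA dehydrogenase, was at 200, 238, 197, 225 and 219 FPKM in Ctrl and at 165, 146, 161, 200 and 182 FPKM in B2D. B2D mouse 4 overlapped with the lowest Ctrl mice, and the difference was -0.34 (SE 0.11, limma adjusted p = 0.138). Over the other settings of the test Ivd had limma adjusted p from 0.0181 to 0.136, Acadsb from 0.0351 to 0.164 and Gcdh, which passed only with all 4 groups in 1 fit, from 0.0478 to 0.294.

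None of the acceptor genes passed, and their differences were of both signs. Etfa was at 223 ± 15.6 FPKM in Ctrl and 218 ± 9.77 FPKM in B2D, with values of 202, 242, 221, 234 and 215 FPKM against 207, 221, 217, 233 and 213 FPKM. The difference was -0.03 (-0.23 to 0.18, limma adjusted p = 0.903). Etfb was at 24.3 ± 4.42 and 22.3 ± 1.86 FPKM, a difference of -0.10 (-0.39 to 0.18, limma adjusted p = 0.704). Etfdh was at 63.2, 65.2, 61.9, 65.0 and 85.8 FPKM in Ctrl and at 77.6, 74.3, 98.4, 89.5 and 80.4 FPKM in B2D. It had the largest positive difference, 0.30 (SE 0.12, limma adjusted p = 0.212), which did not pass. Ctrl mouse 5 was above 3 of the 5 B2D mice, and without it the difference was 0.38 (limma adjusted p = 0.0975).

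The second comparison, B2D+FF against Ctrl+FF, asks the same of mice given the PPARα agonist. Acadl alone passed the threshold and was higher in B2D+FF, where 2.24% of the 11878 genes tested rose and 2.21% fell. At an unadjusted p under 0.05, 4 members were higher and 0 were lower (11.3% and 9.93% of all genes). The groups did not overlap for 4 members, all higher (7.82% of all genes higher and 6.44% lower). The median difference of the 10 was 0.20, and that of all genes was 0.013.

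Acadl was at 309, 319, 297 and 291 FPKM in Ctrl+FF and 462, 398, 401 and 477 FPKM in B2D+FF, with every B2D+FF mouse above every Ctrl+FF mouse. The difference was 0.51 (SE 0.10, 0.29 to 0.73, limma adjusted p = 0.0239), a mean FPKM 1.43 times that of Ctrl+FF. The call was lost in 6 of the 8 fits that left out 1 mouse (without each Ctrl+FF mouse, and without B2D+FF mouse 1 or 4), with adjusted p of 0.0568 to 0.0788 and differences of 0.46 to 0.53. It was lost as well when genes of any level were tested (adjusted p = 0.0530).

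The other chain-length enzymes were higher on average and did not pass. Acadvl was at 154, 163, 146 and 164 FPKM in Ctrl+FF and at 193, 176, 191 and 229 FPKM in B2D+FF, ranges that were apart, with a difference of 0.33 (SE 0.10, limma adjusted p = 0.109). Acadm was at 366, 389, 324 and 339 FPKM against 454, 356, 404 and 501 FPKM, with overlap, and differed by 0.27 (-0.02 to 0.55, limma adjusted p = 0.263). Acads differed by 0.10 (-0.13 to 0.32, limma adjusted p = 0.631), at 134 ± 11.4 and 143 ± 10.8 FPKM. Fenofibrate acts through PPARα, which as a dimer with RXR binds a direct repeat of the letters AGGTCA with 1 base between. The 250 bases before the RefSeq start site are shown for Acadl, the gene that passed, and for Acadm and Acadvl, the 2 of the 10 whose window holds the letters of that half-site, AGGTCA, on either strand (in capitals, read 5′ to 3′ on the gene's strand, build GRCm38.p6):
Acadl, chr1:66863310-66863559, minus strand: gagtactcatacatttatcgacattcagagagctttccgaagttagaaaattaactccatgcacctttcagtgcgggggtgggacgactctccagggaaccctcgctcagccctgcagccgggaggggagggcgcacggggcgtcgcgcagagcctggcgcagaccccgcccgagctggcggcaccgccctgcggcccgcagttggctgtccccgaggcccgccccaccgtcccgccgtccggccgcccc
Acadm, chr3:153944644-153944893, minus strand: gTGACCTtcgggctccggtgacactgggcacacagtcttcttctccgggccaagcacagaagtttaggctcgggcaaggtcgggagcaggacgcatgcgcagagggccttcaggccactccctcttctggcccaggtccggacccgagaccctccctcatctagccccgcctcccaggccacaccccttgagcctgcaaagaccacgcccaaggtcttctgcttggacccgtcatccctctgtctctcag
Acadvl, chr11:70015429-70015678, minus strand: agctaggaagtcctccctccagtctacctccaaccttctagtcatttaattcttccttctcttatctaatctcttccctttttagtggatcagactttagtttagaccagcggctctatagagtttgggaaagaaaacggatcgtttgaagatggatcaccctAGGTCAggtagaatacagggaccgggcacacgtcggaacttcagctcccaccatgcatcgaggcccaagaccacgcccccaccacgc
Counted back from the start site, the Acadm match begins at -249, on the opposite strand as TGACCT, and the Acadvl match at -87. AGGTCA stood on either strand in 14.0% of 32851 promoters of that length, and the direct repeat, AGGTCANAGGTCA, in 0.0335% of them and in none of the 10 members. A looser form of the repeat, AGGNCANAGGNCA, stood in 0.338% and also in none of the 10. A match is only a description of these letters.

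The 2 branched-chain enzymes of the set had negative differences with fenofibrate too, and neither passed. Ivd was at 47.7, 43.5, 43.1 and 43.1 FPKM in Ctrl+FF and at 32.4, 33.5, 43.7 and 42.7 FPKM in B2D+FF. B2D+FF mouse 3 lay above 3 of the 4 Ctrl+FF mice, and the difference was -0.23 (SE 0.12, limma adjusted p = 0.301). Acadsb was at 17.4, 14.0, 16.3 and 14.0 FPKM against 9.33, 11.7, 14.4 and 14.1 FPKM, with a difference of -0.31 (SE 0.14, limma adjusted p = 0.241). Gcdh was at 252 ± 12.2 and 256 ± 28.2 FPKM and differed by 0.01 (-0.22 to 0.25, limma adjusted p = 0.957).

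Among the acceptor genes, both ETF subunits were higher in B2D+FF than in every Ctrl+FF mouse, and neither passed. Etfb was at 50.7, 58.2, 59.3 and 39.2 FPKM in Ctrl+FF and at 79.6, 63.3, 68.6 and 67.6 FPKM in B2D+FF, a difference of 0.43 (SE 0.14, limma adjusted p = 0.114). Etfa was at 230, 231, 252 and 206 FPKM against 278, 252, 253 and 295 FPKM, a difference of 0.23 (SE 0.10, limma adjusted p = 0.229). Etfdh was at 76.1, 78.2, 65.1 and 77.2 FPKM against 83.6, 69.9, 83.6 and 98.9 FPKM, with overlap and a difference of 0.17 (-0.10 to 0.44, limma adjusted p = 0.451). General mitochondrial genes, such as Cs and Vdac1, leaned the same way: 10 of 10 differences were positive, with a median of 0.27, and 1, Phb, passed (0.51, limma adjusted p = 0.0333, kept in 2 of the 8 fits without 1 mouse). Their part in the results was not tested.

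**Figure D2:**
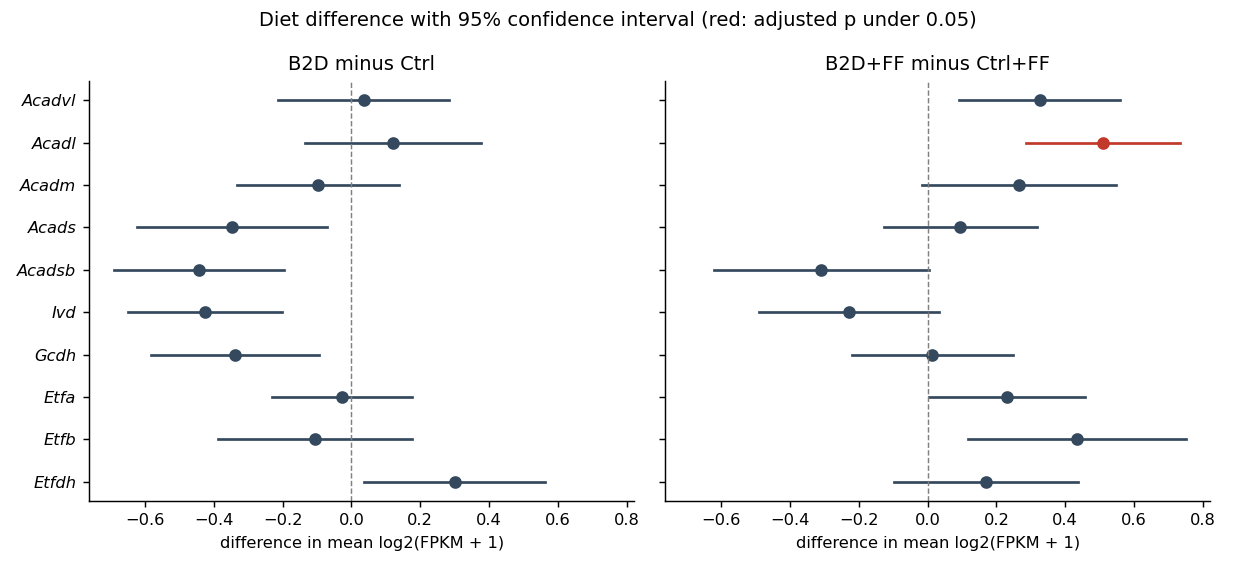
Difference in mean log2(FPKM + 1), B2D minus Ctrl (left) and B2D+FF minus Ctrl+FF (right), with the 95% confidence interval, for the 10 genes; red marks an adjusted p under 0.05. Acadl with fenofibrate (0.51) is the only red point, and Ivd (-0.42) and Acadsb (-0.44) are the lowest points on the left.

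The test of whether the diet difference itself changed between the experiments called none of the 10 (limma, 1 fit of 18 libraries and 11031 genes, in which 0.145% of genes passed in either direction). At an unadjusted p under 0.05, 5 members passed, all with a more positive difference with fenofibrate (6.79% of all genes did so), and limma voom called 0. The values of these 5 were 0.54 for Etfb (SE 0.19, adjusted p = 0.294), 0.44 for Acads (adjusted p = 0.297), 0.39 for Acadl (adjusted p = 0.311), 0.36 for Acadm (adjusted p = 0.373) and 0.35 for Gcdh (adjusted p = 0.354). Etfdh was the 1 member with a negative value, -0.13 (adjusted p = 0.795). An effect of the diet on Acadl with fenofibrate is thus not shown to differ from that without it. The contrast also holds the difference in weeks of diet and in table.

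Each dehydrogenase was then set against its acceptor within each mouse, as log2 FPKM minus the mean log2 FPKM of Etfa, Etfb and Etfdh. The ratio does not depend on the scaling of a library, and no test was run on it. Ivd stood at -0.94 ± 0.07 in Ctrl (SD, n = 5) and at -1.43 ± 0.24 in B2D (n = 5), and Acadsb at -1.96 ± 0.14 and -2.48 ± 0.20. Gcdh stood at 1.59 ± 0.11 in Ctrl and 1.20 ± 0.18 in B2D. The groups did not overlap for these 3 of the 7 dehydrogenases, and B2D was the lower (3.99% of all genes were lower without overlap on the same ratio and 1.25% higher).

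The ratio of Acads was 0.54 ± 0.15 in Ctrl and 0.13 ± 0.21 in B2D, with overlap. Those of Acadvl, Acadl and Acadm differed between the groups by -0.02, 0.06 and -0.15, all with overlap. The count rested on which acceptor genes were taken: with Etfa and Etfb only, 1 of 7 was lower without overlap (Ivd), and with Etfdh only 4 of 7 (Ivd, Acadsb, Gcdh and Acadm). The share of all genes was computed only for the mean of Etfa, Etfb and Etfdh. The counts with the other acceptors therefore have no background and cannot be read as a trait of the members.

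With fenofibrate the ratio was again lower without overlap for Ivd (-1.10 ± 0.12 in Ctrl+FF and -1.62 ± 0.23 in B2D+FF, n = 4 each), Acadsb (-2.63 ± 0.16 and -3.25 ± 0.32) and Gcdh (1.40 ± 0.12 and 1.13 ± 0.15), and higher without overlap for Acadl (1.67 ± 0.08 and 1.90 ± 0.05). On this ratio 21.4% of all genes were lower without overlap and 1.07% higher, and the acceptor genes themselves had positive differences of 0.17 to 0.43, so the count of 3 of 7 stands beside a high background. These counts also rested on the acceptor: with Etfa and Etfb only, 3 were lower (Ivd, Acadsb and Acads) and 0 higher, so that Acadl overlapped, and with Etfdh only 2 were lower (Ivd and Acadsb) and 2 higher (Acadl and Acadvl). For these other acceptors too, the share of all genes was not computed. The ratio of Etfa to Etfb, on the log2 scale, was 3.21 ± 0.25 in Ctrl and 3.29 ± 0.16 in B2D, and 2.16 ± 0.17 in Ctrl+FF and 1.95 ± 0.14 in B2D+FF.

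**Figure D3:**
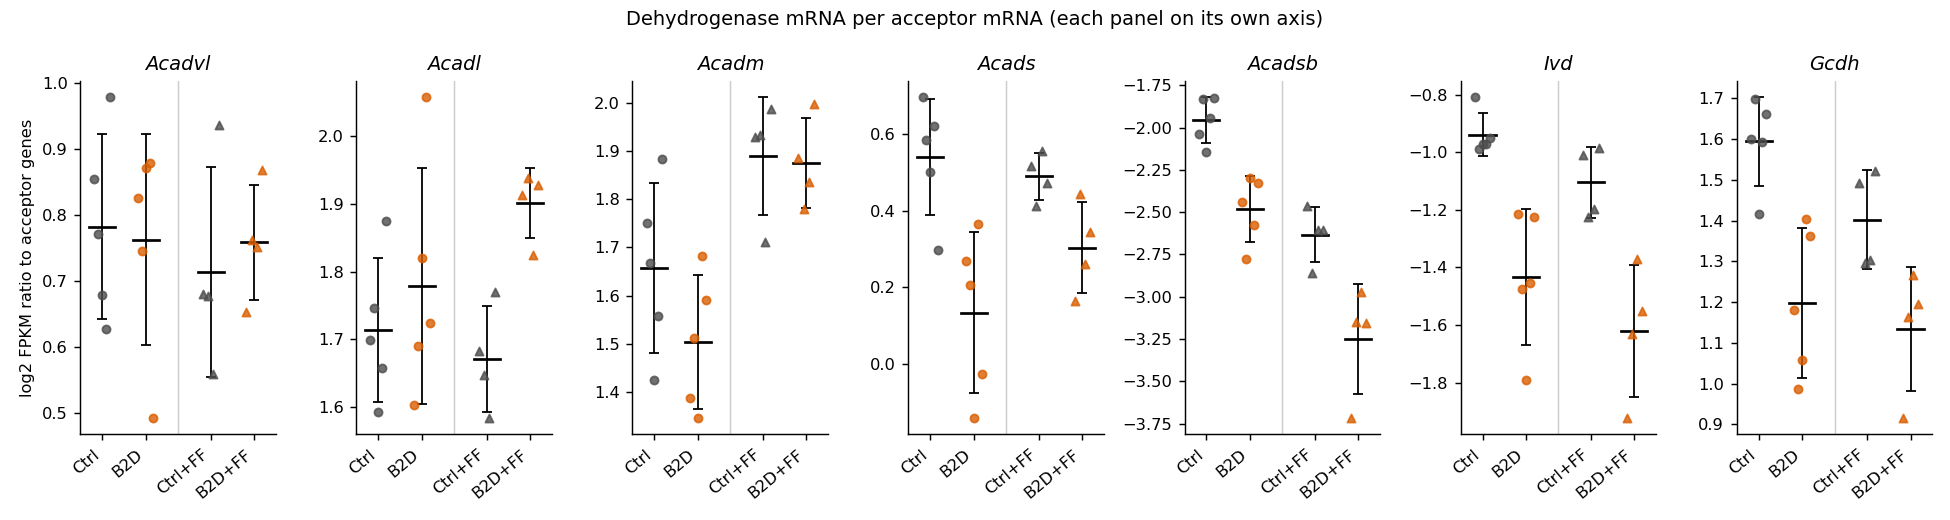
Log2 ratio of each dehydrogenase's FPKM to the mean of the acceptor genes Etfa, Etfb and Etfdh, per mouse, with the mean and SD of each group (each panel on its own axis; circles without and triangles with fenofibrate). Ivd, Acadsb and Gcdh are lower in every B2D mouse than in every mouse of the matched control group, in both experiments. With fenofibrate 21.4% of all genes were lower without overlap on this ratio. Gcdh mRNA itself differed there by 0.01, and its ratio overlapped with Etfa and Etfb only or Etfdh only as acceptor.

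Genes around the members were taken by list. Of the 5 other acyl-CoA dehydrogenases (Acad8, Acad9, Acad10, Acad11 and Acad12) none passed in either comparison, with medians of 0.02 and -0.05. Acad8, also a branched-chain enzyme, was at 16.6 ± 2.13 FPKM in Ctrl and 16.7 ± 0.616 FPKM in B2D (0.02, limma adjusted p = 0.935). With fenofibrate the difference of Acad8 was -0.05 (limma adjusted p = 0.784). Of the 3 other enzymes that pass electrons to ETF none passed, and all 3 differences were negative in both comparisons (medians -0.24 and -0.11). Sardh, sarcosine dehydrogenase, was at 144 ± 10.9 FPKM in Ctrl and 105 ± 14.6 FPKM in B2D, without overlap (-0.46, limma adjusted p = 0.0615), and at 148 ± 14.7 and 110 ± 20.9 FPKM with fenofibrate, again without overlap (-0.44, limma adjusted p = 0.114). Of 6 other flavoproteins that reduce ubiquinone 1 passed without fenofibrate, Sqor, sulfide:quinone oxidoreductase, which fell from 25.0 ± 1.98 to 16.6 ± 2.87 FPKM (-0.58, limma adjusted p = 0.0367) and lost its call in 6 of the 10 fits without 1 mouse, and 0 passed with it.

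Of the 9 enzymes of the later steps of beta-oxidation none passed in either comparison. Without fenofibrate 8 of 9 differences were negative, with a median of -0.25, and with it 9 of 9 were positive, with a median of 0.16. Acaa2, the last step, was at 696 ± 50.5 FPKM in Ctrl and 551 ± 32.7 FPKM in B2D, without overlap (-0.34, limma adjusted p = 0.1004), and at 698 ± 37.6 and 795 ± 29.3 FPKM with fenofibrate. None of the 4 genes of the carnitine shuttle, which brings long-chain acyl groups into the mitochondrion, passed. Cpt1a was at 225 ± 21.1 and 283 ± 30.1 FPKM without fenofibrate (0.33, limma adjusted p = 0.150).

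Of 14 other enzymes of branched-chain amino acid breakdown none passed: 12 of 14 differences were negative without fenofibrate (median -0.16) and 5 of 14 with it (median 0.04). Of 6 genes near Gcdh in lysine breakdown none passed: 4 of 6 differences were positive in each comparison, with medians of 0.02 and 0.25. Without fenofibrate they ran from -0.39 for Aldh7a1 to 0.34 for Aass (limma adjusted p = 0.379). Aldh7a1 was at 88.8 ± 3.99 and 67.8 ± 8.26 FPKM without fenofibrate, without overlap (-0.39, limma adjusted p = 0.0764), and at 99.8 ± 10.4 and 99.0 ± 13.4 FPKM with it. Dlst and Dld were higher without overlap in B2D+FF (0.30 and 0.34, limma adjusted p = 0.0810 and 0.0726). The 10 PPARα targets taken as a readout of the agonist held no call either. Without fenofibrate 8 of 10 differences were positive (median 0.20), and 3 of the 10 passed with a filter of 5 FPKM, with array weights and with voom. Over all genes the filter called 267 (206 lower, 61 higher). Of the 11574 genes tested, array weights called 459 (308 lower, 151 higher) and voom 403 (264 lower, 139 higher). With fenofibrate 6 of 10 were positive (median 0.18). Ehhadh was at 936 and 1898 FPKM in Ctrl and B2D (limma adjusted p = 0.0701), and at 5551 and 6547 FPKM in Ctrl+FF and B2D+FF (limma adjusted p = 0.582). Fabp1 lay the other way, at 5269 and 3625 FPKM in Ctrl and B2D (-0.53, limma adjusted p = 0.186).

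FAD reaches these enzymes through uptake of riboflavin and its conversion by riboflavin kinase (Rfk) and FAD synthase (Flad1). Of the 5 genes of this supply 4 passed the filter, and none was called. Rfk was at 19.1 ± 1.04 FPKM in Ctrl and 22.0 ± 2.40 FPKM in B2D (0.19, limma adjusted p = 0.310), and at 25.7 ± 2.43 and 32.4 ± 2.17 FPKM with fenofibrate, without overlap (0.33, limma adjusted p = 0.0817). Flad1 was at 9.51 ± 1.28 and 10.5 ± 0.563 FPKM, and at 10.2 ± 0.628 and 13.0 ± 1.99 FPKM with fenofibrate. The riboflavin transporter Slc52a2 and the mitochondrial FAD carrier Slc25a32 differed by 0.20 and 0.32 without fenofibrate and by -0.0043 and 0.22 with it, and Slc52a3 was below the filter. Etfbkmt, which methylates the Etfb product, was at 29.6 ± 6.35 and 21.7 ± 8.13 FPKM without fenofibrate, and at 28.9 ± 4.99 and 37.4 ± 7.32 FPKM with it. Etfrf1, a regulator of ETF, was at 25.1 ± 2.63 and 27.3 ± 6.94 FPKM, and at 48.0 ± 8.71 and 46.8 ± 7.07 FPKM.

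The genes whose pattern over mice was closest to 4 of the members were named by Pearson's r of log2(FPKM + 1) over the 18 libraries, after each table was centred on its own mean, among 4284 protein-coding genes. They share libraries and diet groups with the member, so r is a description. For Acadm they were Acat1 (r = 0.85), Hadhb (0.83) and Pttg1ip (0.83). For Ivd they were Sardh (0.95), Clcn2 (0.91) and Aldh4a1 (0.91), for Gcdh Hibadh (0.95), Pcca (0.95) and Galm (0.91), and for Etfdh Lclat1 (0.92), Eif3a (0.91) and Cyp4a14 (0.91).

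**Figure D4:**
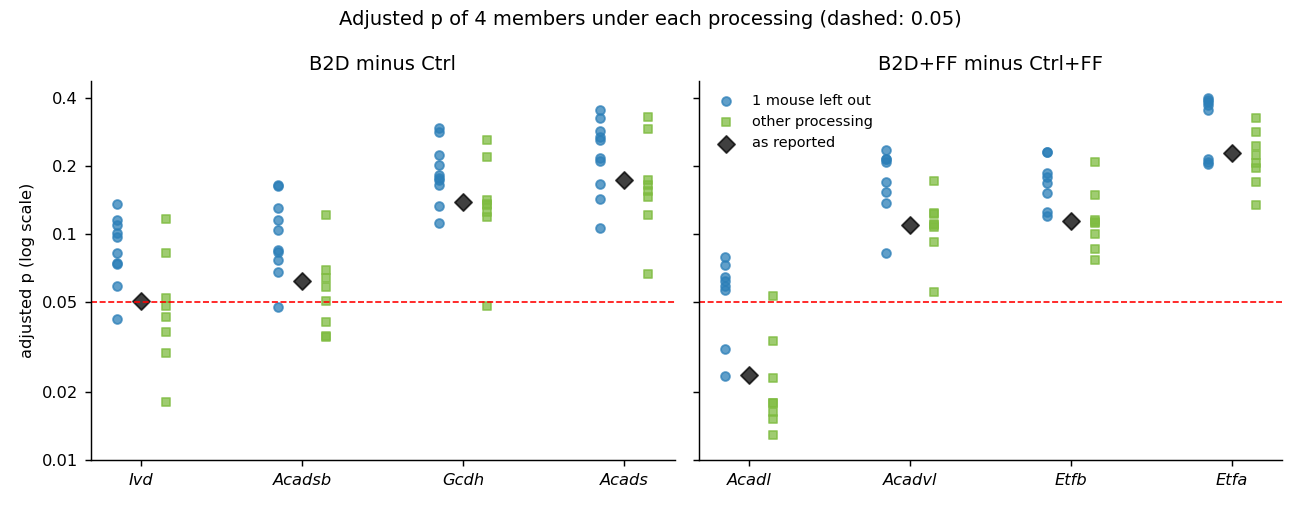
Adjusted p (log axis) of 4 members in each comparison, as reported (diamonds), with 1 mouse left out (circles) and under the other settings (squares); the dashed line is 0.05. Ivd and Acadsb lie on both sides of the line on the left, and Acadl crosses it in most fits without 1 mouse on the right.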

How the data were processed

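Per the labels and the study's methods, the authors prepared mRNA libraries (NEBNext Ultra) from total liver RNA, sequenced paired ends, aligned reads with STAR to mm10, counted with featureCounts and tested genes with DESeq2. They deposited 1 table of FPKM per experiment (the methods say RPKM), each normalized on its own, with 1 column per mouse. Strand and overlap settings are not given in the sources used here. Values times gene length were whole reads (within 0.1 read, up to 1000 reads), so reads were recovered. Mice are numbered from 1 within each group in accession order, which pairs no samples.

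Genes with a mean of at least 0.5 FPKM were fitted on log2(FPKM + 1) with limma 3.58.1 (R 4.3.3; trend, moderated), each table alone, and p-values were adjusted by Benjamini-Hochberg over all genes at 0.05. Fold changes on this scale understate low genes. The difference between experiments was a contrast in 1 fit of 18 libraries. The fit was tested on simulated data. Alternatives were a pseudocount of 0.1, no filter, a filter of 5 FPKM, upper-quartile or quantile scaling, array weights, limma voom on recovered reads, all 4 groups in 1 fit and each mouse left out. The members and lists were chosen with earlier results of these data known. Named genes are all members, FAD supply and ETF assembly genes, up to 5 called genes per list, and 3 genes of like pattern for 4 members. Other genes named (Acad8, Sardh, Acaa2, Cpt1a, Aldh7a1, Aass, Dlst, Dld, Ehhadh, Fabp1, Cs, Vdac1, Alb, Ttr, Hnf4a, Cd68) were chosen after their values were seen. Promoters came from RefSeq (GRCm38.p6), for all 10 members, and gene positions and exons from the deposited tables and GENCODE vM21. Python 3.11.15, pandas 2.3.3 and numpy 2.4.6 were used.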

Additional observations from a re-analysis of the deposited data

Results flagged for a closer look

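In 3 of 40 sets of mice (10 genes in 4 groups) a mouse stood apart from the others of its group, by a gap to its nearest neighbour that was large against the range of the group (chance gives about 1 in 20). Ivd was highest in Ctrl+FF mouse 1, at 47.7 FPKM against 43.5 in the next. Etfdh was highest in Ctrl mouse 5, at 85.8 FPKM against 65.2, and lowest in Ctrl+FF mouse 3, at 65.1 FPKM against 76.1. No member passed the test of a diet difference between the experiments.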

How the results depend on the processing

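Each alternative changed 1 choice, except voom, which replaced the values, their log scale and the weights together. The filter mean was taken over the libraries of each fit. With all 4 groups in 1 fit or a mouse left out, the set of genes tested could therefore change as well. Of 590 values of single members (10 genes, 3 comparisons), 563 kept their direction and side of the threshold, 9 changed sign, 11 gained and 7 lost a call. For B2D against Ctrl, where 0 members passed, 2 passed with a filter of 5 FPKM (which tests fewer genes), 1 with upper-quartile scaling (Ivd), 2 with array weights, 1 with voom and 3 with all 4 groups in 1 fit (Ivd, Acadsb and Gcdh), and 0 to 1 when a mouse was left out. For B2D+FF against Ctrl+FF, where 1 passed, 0 passed without a filter and 0 to 1 with a mouse left out. For the difference between experiments 0 passed in all alternatives. For B2D against Ctrl, upper-quartile scaling called 310 of 11574 genes (232 lower, 78 higher), array weights 459 and voom 403. The filter of 5 FPKM called 267. How many genes were tested with that filter or with all groups in 1 fit is not given here, so those member counts have no share beside them. The number of genes called was 313 for B2D against Ctrl and 67 without a filter (49 lower, 18 higher). It was 731 with all groups in 1 fit (444 lower, 287 higher) and 98 to 332 with a mouse left out (98 without Ctrl mouse 4, 109 without Ctrl mouse 2). It was 529 with fenofibrate, 272 without a filter, 885 with array weights and 175 to 596 with a mouse left out (175 without Ctrl+FF mouse 1). It was 16 for the difference, 25 without a filter, 6 with a filter of 5 FPKM, 112 with array weights and 8 to 44 with a mouse left out (44 without B2D mouse 1).

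Quantile normalization turned the sign of Acadm (0.041) and Etfa (0.10) in B2D against Ctrl and of Gcdh (-0.00904) with fenofibrate, and leaving out a mouse that of Acadvl (-0.0053 to 0.12) and Etfa (-0.062 to 0.0027) without fenofibrate and of Gcdh with it (-0.043 to 0.059), none of which was called. With Etfdh alone as acceptor, the ratio differences of B2D against Ctrl were -0.27 for Acadvl, -0.18 for Acadl, -0.40 for Acadm, -0.65 for Acads, -0.78 for Acadsb, -0.74 for Ivd and -0.64 for Gcdh, and with fenofibrate 0.34 for Acadl, 0.094 for Acadm and -0.077 for Acads. Except where a cause is given, the cause was not tested. No paired analysis was run, because the groups hold different mice and the sources used here describe no pairing between them. With 4 or 5 mice a group, the 95% confidence interval of a member reached 0.20 to 0.28 to either side without fenofibrate and 0.22 to 0.32 with it, which limits the differences that could be seen.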
